A study of Homo sapiens with 2 samples.

Results

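A bidirectional promoter is the stretch of DNA between the starts of a pair of genes that lie head to head on opposite strands and are transcribed away from each other. Here 887 such promoters of protein-coding pairs were followed in ATAC-seq peak lists of 293T cells, with and without methylglyoxal (MGO). The pairs were found in GENCODE 44, an annotation of GRCh38, as protein-coding genes on opposite strands of chromosomes 1 to 22, X and Y whose 5′ ends were at most 1000 bp apart. The region scored ran from 500 bp beyond the start of the minus-strand gene to 500 bp beyond the start of the plus-strand gene. The pairs held 1710 of 20033 protein-coding genes (8.54%). Of these genes, 63 belonged to more than 1 pair, and the regions merged into 824 separate stretches. Chromosome 1 carried 78 pairs, chromosome 19 carried 74, chromosome 11 carried 71 and chromosome Y none. A gene start is the most upstream start annotated for that gene, and pairs whose annotated 5′ ends overlap are not members. By this definition 6 of 11 pairs known from textbooks fell outside, among them HSPD1/HSPE1 and COL4A1/COL4A2.

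293T cells are an established line from human embryonic kidney that expresses the large T antigen of SV40. ATAC-seq uses the Tn5 transposase to insert adapters into DNA that nucleosomes leave free, so that reads collect over open chromatin. There was 1 list from a library of 50000 control cells and 1 list from a library of 50000 cells kept for 12 h in medium with 0.5 mM MGO, a reactive by-product of glycolysis that forms adducts on arginine and lysine side chains, those of histones included. The study asked whether these adducts alter chromatin compaction in cells. A label gives PBS as the control treatment, whereas the treatment protocol describes fresh medium alone. With 1 library of each condition analysed no difference between control and MGO has a replicate check. The control list held 36142 peaks and the MGO list 22884, with a highest q value of 0.0986 and 0.0988. The lists give no read counts, so the depth behind a peak is unknown, and the 95% intervals below cover counting error only and treat promoters as independent.

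Promoters of this kind are common in the human genome. Most are CpG islands without a TATA box, and a nucleosome-free stretch between both genes serves transcription in both directions. Their genes often have housekeeping tasks such as DNA repair, mitochondrial function, chaperoning and histone supply, and the replication-dependent histone genes H2A and H2B are classic divergent pairs. Motifs of ETS-family factors, NRF1, NF-Y and SP/KLF factors are typical of such DNA.

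The starts of a pair lay 1 to 995 bp apart, with a median of 132 bp (quartiles 69 and 248.5), and 595 pairs (67.1%) lay within 200 bp. The DNA strictly between both starts is therefore short, and it can be shown whole. The following stretches, read from the plus strand of GRCh38, are those of pairs on which the results below turn. Capitals mark matches on either strand to the letters searched, which were CCGGAAG for ETS factors, GCGCATG for NRF1, CCAAT for NF-Y, GGGCGG for SP/KLF factors, AAGATGG for YY1, TCGCGAG as a palindrome of housekeeping promoters, TGACGTCA for CREB, TATAAA for the core promoter element bound by TBP and TGANTCA for AP-1. None of these motifs contains another. Shown at the top are 3 promoters with strong or textbook peaks in both lists: MZT1/BORA at chr13:72727630-72727748, TPR/ODR4 at chr1:186375694-186375837 and PPAT/PAICS at chr4:56435616-56435740.
MZT1/BORA: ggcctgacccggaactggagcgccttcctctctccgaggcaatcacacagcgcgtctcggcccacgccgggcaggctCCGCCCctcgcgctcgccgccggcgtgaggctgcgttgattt
TPR/ODR4: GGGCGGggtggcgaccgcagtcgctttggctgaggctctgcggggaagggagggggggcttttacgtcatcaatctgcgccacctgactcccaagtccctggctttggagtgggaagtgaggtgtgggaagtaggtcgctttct
PPAT/PAICS: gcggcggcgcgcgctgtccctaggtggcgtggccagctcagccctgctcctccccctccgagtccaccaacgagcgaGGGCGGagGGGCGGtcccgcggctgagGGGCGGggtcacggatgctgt
Shown next are promoters whose peak was called in control cells only, GPBP1L1/TMEM69 at chr1:45688114-45688180 and TSR3/GNPTG at chr16:1351879-1351930, followed by a promoter called under MGO only, LYPD5/ZNF283 at chr19:43827207-43827320.
GPBP1L1/TMEM69: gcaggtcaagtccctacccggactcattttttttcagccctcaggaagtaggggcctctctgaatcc
TSR3/GNPTG: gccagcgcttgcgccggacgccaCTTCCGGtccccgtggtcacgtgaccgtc
LYPD5/ZNF283: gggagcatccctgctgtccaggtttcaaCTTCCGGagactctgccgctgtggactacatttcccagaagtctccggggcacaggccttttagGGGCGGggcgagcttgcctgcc
At FBXO42/SZRD1 (chr1:16352481-16352574) the MGO peak was much wider than the control peak. At IFT140/CRAMP1 (chr16:1612073-1612336) the ratio of widths, MGO over control, was the largest.
FBXO42/SZRD1: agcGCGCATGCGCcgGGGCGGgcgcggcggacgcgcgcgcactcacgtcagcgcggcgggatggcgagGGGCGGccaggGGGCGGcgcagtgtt
IFT140/CRAMP1: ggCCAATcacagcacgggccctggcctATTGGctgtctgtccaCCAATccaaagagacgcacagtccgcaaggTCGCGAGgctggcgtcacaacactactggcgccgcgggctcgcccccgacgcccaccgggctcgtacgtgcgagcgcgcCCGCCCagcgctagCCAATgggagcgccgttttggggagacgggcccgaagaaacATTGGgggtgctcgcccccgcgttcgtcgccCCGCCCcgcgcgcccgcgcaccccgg
The last are divergent histone pairs, H2AC17/H2BC17 at chr6:27893186-27893424 with a narrower MGO peak and H2AC14/H2BC14 at chr6:27814778-27815021 without a peak in either list.
H2AC17/H2BC17: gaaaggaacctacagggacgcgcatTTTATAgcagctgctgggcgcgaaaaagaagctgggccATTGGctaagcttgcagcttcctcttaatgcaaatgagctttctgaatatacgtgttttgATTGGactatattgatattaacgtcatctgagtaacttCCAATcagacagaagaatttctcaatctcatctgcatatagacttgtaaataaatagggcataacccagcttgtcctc
H2AC14/H2BC14: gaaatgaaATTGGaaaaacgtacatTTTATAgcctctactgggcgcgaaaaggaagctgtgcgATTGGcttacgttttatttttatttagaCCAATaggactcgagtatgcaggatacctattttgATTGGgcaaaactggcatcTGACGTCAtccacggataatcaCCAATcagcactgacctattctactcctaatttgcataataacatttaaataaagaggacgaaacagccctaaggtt
The GC content of these stretches ran from 38.9% at H2AC14/H2BC14 to 81.9% at FBXO42/SZRD1. Both histone stretches hold NF-Y boxes and a TATA box and no SP/KLF letters. The stretch at FBXO42/SZRD1 holds 3 SP/KLF matches and 2 overlapping NRF1 matches. IFT140/CRAMP1 holds 36 CpG dinucleotides in 264 bp.

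Among all deposited peaks, most bidirectional promoters had a control peak and nearly all of these also had an MGO peak. Of the 887 regions, 808 overlapped a control peak (91.1%, 95% Wilson interval 89.0 to 92.8%) and 791 an MGO peak (89.2%, 87.0 to 91.1%). A peak was called in both lists at 784 regions (88.4%), in control only at 24 (2.71%), under MGO only at 7 (0.789%) and in neither at 72 (8.12%). No region overlapped more than 1 peak of a list. Regions that lie together can share a peak, so these were 748 separate control peaks and 732 separate MGO peaks. A shared peak counts once for each of its regions here and below. Of the 808 regions with a control peak, 97.03% also had an MGO peak (95.6 to 98.0%). This share was 93.0% with peaks of a −log10 q of at least 2, the limit the study used, 70.9% at a −log10 q of at least 5 and 36.5% at a fold enrichment of at least 4. At that fold enrichment a control peak remained at 30.9% of the regions, and at 13.3% a peak of the MGO list. The control-only regions were thus 24 of 808, while 7.56% of all 11631 protein-coding start windows with a control peak had no MGO peak. A start window is the DNA within 500 bp of a gene start, and the regions, which span both starts, are longer. In start windows of the plus-strand genes of the pairs, 749 of 775 with a control peak also had an MGO peak (96.6%). Among start windows of the plus-strand genes of the pairs, 10 of the 81 without a control peak had an MGO peak (12.3%, 6.85 to 21.3%), against 3.31% of all 8402 protein-coding start windows without a control peak.

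Loss was concentrated among the weakest control peaks. The 808 regions with a control peak were ordered by the −log10 p of that peak and cut into 5 groups of about equal size. Of the weakest group 88.3% also had an MGO peak (143 of 162), then 97.5%, 99.4%, 100% and 100%. The lower limit of the interval in the strongest group was 97.7%.

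For a comparison with other promoters the same window of 500 bp on either side of the gene start was used throughout, with 1 start per pair, that of the plus-strand gene (856 windows). A control peak lay in 90.5% of these windows (88.4 to 92.3%) and an MGO peak in 88.7% (86.4 to 90.6%). For the 18323 protein-coding genes outside the pairs the shares were 55.0% (54.3 to 55.8%) and 51.9% (51.2 to 52.7%). The latter genes were split into 1420 that lay head to head with a lncRNA gene within the same distance and 16903 others, called single here. The single class still holds 962 genes whose 5′ ends overlap those of a protein-coding gene on the opposite strand, since such pairs do not meet the rule. The genes paired with a lncRNA had a control peak in 83.7% of windows and an MGO peak in 82.2%, the single genes in 52.6% and 49.4%. Bidirectional promoters thus exceeded the lncRNA-paired ones by 6.80 percentage points in control (Newcombe interval 3.99 to 9.49) and by 6.49 points under MGO (3.501 to 9.34). The difference from all other protein-coding promoters was 35.5 points in control and 36.7 under MGO. When windows of equal GC content were compared, with Mantel-Haenszel weights over 5 groups, 24.97 and 25.9 points remained.

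Among windows with a control peak, 96.6% of the bidirectional ones also had an MGO peak (749 of 775), against 91.8% of the others (9257 of 10085), 4.86 points more (3.25 to 6.05). It was 3.07 points when windows of equal control −log10 p were compared, 3.63 at equal peak width, 3.73 at equal fold enrichment and 4.08 at equal GC content. From the single genes, at 91.1%, the difference was 5.54 points (3.92 to 6.76). Without the genes of overlapping 5′ ends the difference from all other promoters was 5.27 points. From genes paired with a lncRNA, at 96.9%, no difference was detectable at this number of windows (−0.24 points, −1.98 to 1.32). With a peak defined by a fold enrichment of at least 4 in each list the difference from the other promoters was −2.66 points. No interval was computed for this value, and at that limit only 30.9% of bidirectional regions had a control peak.

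**Figure D1:**
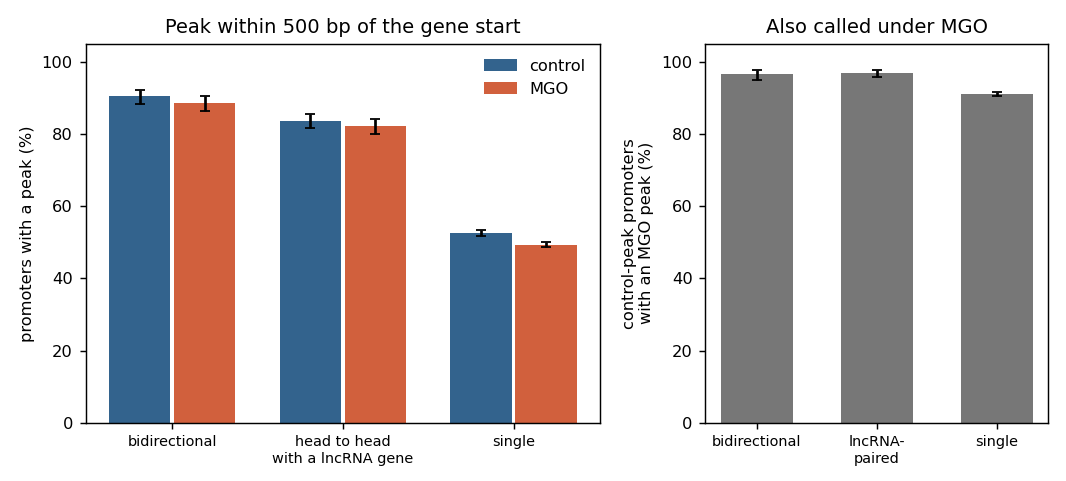
Left, the share of start windows (within 500 bp of the gene start, in percent) with a peak in the control and MGO lists for bidirectional (856), lncRNA-paired (1420) and single (16903) promoters. Right, the share of control-peak windows that also had an MGO peak. Error bars are 95% Wilson intervals. Bidirectional windows have the highest shares on the left, and on the right they stand level with lncRNA-paired ones, above the 91.1% of single promoters.

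Among all deposited peaks, a single peak covered both gene starts at most bidirectional promoters. In control cells this was so at 747 of 887 regions (84.2%, 81.7 to 86.5%) and under MGO at 714 (80.5%, 77.8 to 83.0%). Of the 747 regions among all deposited peaks, the MGO peak also covered both starts at 695 (93.0%, 91.0 to 94.7%). Among regions with a peak, it covered only 1 start at 53 of 808 in control (6.56%) and at 64 of 791 under MGO (8.09%), and neither start at 8 and 13. The share with both starts covered was lowest for the widest distances. In control it was 98.7% of regions with a peak for starts at most 100 bp apart, 93.6% up to 200 bp, 89.6% up to 500 bp and 67.7% beyond. Under MGO it was 94.6%, 96.1%, 84.4% and 67.2%. The share of regions with a control peak was 89.8% in the closest and 85.5% in the widest group, with intervals that overlap.

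The centre of the peak lay a median of 148 bp from the midpoint between the starts in control (quartiles 69.9 and 266) and 163 bp under MGO (75.5 and 279), to either side. At promoters with a peak in both lists, the control peak reached a median of 489 bp beyond the start of the minus-strand gene and 483 bp beyond that of the plus-strand gene. The MGO peak reached 459.5 bp and 459 bp. Which gene lies on the minus strand is arbitrary, so near-equal medians on both sides say nothing of the single peak, and the reach beyond the minus-strand start had quartiles of 316 and 669 bp in control.

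Peaks at bidirectional promoters were stronger and wider than the median deposited peak, as promoter peaks of the other classes were too. In control their median −log10 p was 9.87 and their median fold enrichment 3.68, against 5.15 and 3.10 for all 36142 control peaks. The median percentile by −log10 p within the list was 81.6 in control and 71.9 under MGO. The median width was 1164.5 bp in control and 1128 bp under MGO, against 724 and 753 bp for all deposited peaks. In start windows with a control peak, the median −log10 p was 10.03 for bidirectional, 10.1 for lncRNA-paired and 8.95 for single promoters. The median width of these control peaks was 1167, 1201 and 1104 bp.

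At the 784 promoters with a peak in both lists, the MGO peak had the lower fold enrichment at 628 (80.1%), against 75.4% of all protein-coding start windows with a peak in both lists. Its ratio to the control value had a median of 0.906 (quartiles 0.839 and 0.984), and that of all protein-coding windows was 0.919. In start windows, 80.1% of bidirectional and 74.6% of other promoters had the lower value under MGO, a difference of 5.50 percentage points (2.37 to 8.35). The ratio of −log10 p values had a median of 0.809, and that of all protein-coding windows was 0.810. Fold enrichment and −log10 p depend on the background of each library as well as on its depth, which the authors equalised by random subsetting. With 1 library of each analysed, library and treatment cannot be told apart.

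**Figure D2:**
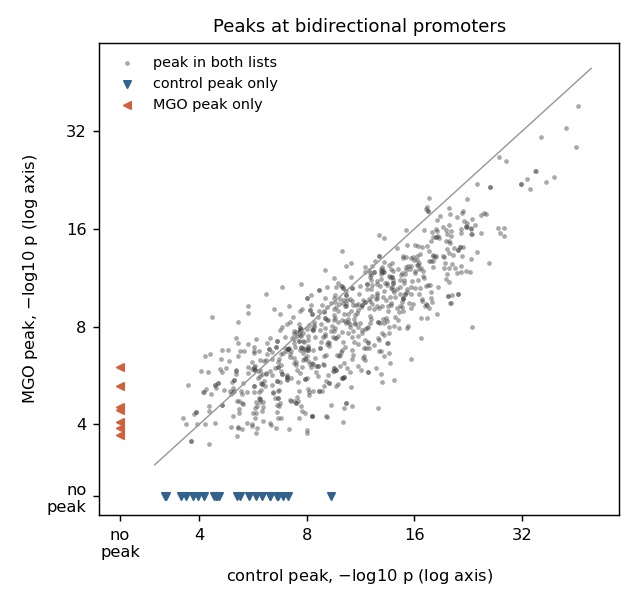
Each point is a bidirectional promoter, with the −log10 p of its control peak on the x axis and that of its MGO peak on the y axis (log axes, grey line at equal values). Triangles at the axes mark the 24 promoters with a control peak only and the 7 with an MGO peak only. Most points lie below the line, and the triangles sit at low values, the highest being 9.33 in control and 6.02 under MGO.

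The 5 promoters of highest control −log10 p kept strong peaks under MGO. The strongest was MZT1/BORA, which serves a small component of the gamma-tubulin complex and an activator of the mitotic kinase Aurora A, at chr13:72726931-72728261 in control and chr13:72726967-72728327 under MGO. Its −log10 p was 45.8 in control and 38.3 under MGO, and its fold enrichment 4.66 and 4.704. TPR/ODR4, whose minus-strand gene encodes a protein of the nuclear pore basket, had −log10 p values of 45.4 and 28.6. Next came PDCD10/SERPINI1 with 42.4 and 32.8, NUDCD1/ENY2 with 39.3 and 23.2, and DNAI4/MIER1 with 37.3 and 22.4. These pairs were chosen for their control value. Their −log10 p was lower under MGO in each case, as it was at 633 of all 784 promoters with a peak in both lists (80.7%). Their width ratios, MGO over control, ran from 0.810 at PDCD10/SERPINI1 to 1.02 at MZT1/BORA.

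Textbook pairs that met the rule included PPAT/PAICS, NPAT/ATM, PRKDC/MCM4 and SIRT3/PSMD13. PPAT and PAICS encode enzymes of purine synthesis, and their shared promoter had a control peak of 2178 bp with a fold enrichment of 3.05 and an MGO peak of 1805 bp with 3.21. NPAT/ATM, the promoter of a coactivator of histone genes and of the kinase that signals DNA breaks, had peaks of 1310 bp and 1183 bp with fold enrichments of 4.32 and 3.65. PRKDC/MCM4 links the catalytic subunit of the DNA-dependent protein kinase to a subunit of the replicative helicase. Its starts lay 7 bp apart under peaks of 1699 bp in control and 1473 bp under MGO, with fold enrichments of 4.05 and 3.75. At SIRT3/PSMD13, a mitochondrial deacetylase and a proteasome subunit, the fold enrichment was 4.32 in control and 2.73 under MGO, at nearly equal widths of 1108 and 1139 bp.

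Bidirectional promoters also differed from the others in how peak width changed, since their peaks were less often narrower under MGO. The MGO peak was narrower at 442 of the 784 promoters with a peak in both lists (56.4%), against 66.3% of all protein-coding start windows with a peak in both lists, and wider at 341. The ratio of widths, MGO over control, had a median of 0.955 (quartiles 0.805 and 1.12). In start windows the MGO peak was narrower at 56.9% of bidirectional promoters (426 of 749) and at 67.9% of other protein-coding promoters (6281 of 9257), which is −11.0 points for bidirectional minus other promoters (Newcombe interval −14.7 to −7.34). It was −11.9 points at equal control width, −11.2 at equal control −log10 p and −10.7 at equal GC content. From promoters paired with a lncRNA gene, narrower at 65.6%, the difference was −8.75 points (−13.2 to −4.27).

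The ends of the peaks show on which side the widths differed. A peak that covers both starts of a bidirectional promoter ends over a gene on either side, whereas a peak over the start of most single promoters has 1 end over the gene and 1 over upstream DNA, apart from the 962 genes of overlapping 5′ ends. At bidirectional promoters the MGO peak ended inside the control peak by a median of 26 bp at the minus-strand gene (quartiles −87 and 144) and by 27.5 bp at the plus-strand gene (−88 and 143). At single promoters it ended inside by 31 bp over the gene (−81 and 161) but by 68 bp on the upstream side (−12 and 186). At lncRNA-paired promoters the medians were 10 bp over the protein-coding gene and 72.5 bp on the upstream side, toward the lncRNA gene.

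Counted as shares, the MGO peak ended inside the control peak on the upstream side of the plus-strand start at 58.3% of bidirectional promoters, against 69.9% of single promoters, a difference of −11.6 percentage points (−15.3 to −7.98). The lncRNA-paired promoters, at 70.3%, differed from the bidirectional ones by nearly the same amount (−12.0 points, −16.4 to −7.56). On the gene side the shares were 57.7% and 57.9% for bidirectional and single promoters, and no difference was detectable (−0.20 points, −3.93 to 3.45). For lncRNA-paired promoters the gene-side share was 53.2%, with a difference of 4.47 points (−0.11 to 8.99). When genes of overlapping 5′ ends were left out, the difference from single promoters was −12.6 points on the upstream side (−16.3 to −9.00) and −0.046 points on the gene side (−3.79 to 3.62). The gene-side difference from lncRNA-paired promoters was then 4.62 points (0.040 to 9.16). Within bidirectional promoters, the MGO peak ended inside the control peak at both ends in 284 of 784 cases, at the minus-strand gene only in 180, at the plus-strand gene only in 172 and beyond it at both ends in 148.

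**Figure D3:**
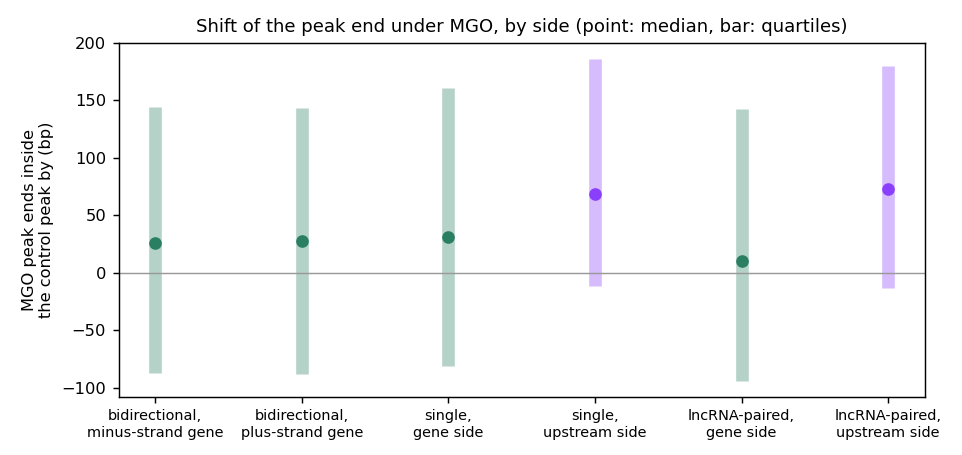
Distance in bp by which the MGO peak ended inside the control peak (y axis, positive values mean a shorter reach under MGO) for each side of bidirectional, single and lncRNA-paired promoters, with the median as a point and the quartiles as a bar. The upstream sides of single and lncRNA-paired promoters have medians of 68 and 72.5 bp, and every side toward a protein-coding gene has a median of at most 31 bp.

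The same peaks can be shown along the DNA as the share of gene starts covered, which is not a separate line of evidence. At 400 bp upstream of the start, 74.1% of the 1710 starts in bidirectional pairs were covered in control and 69.6% under MGO, a ratio of 0.940. The ratio there was 0.809 for lncRNA-paired starts (56.7% and 45.8%) and 0.720 for single starts (23.6% and 16.97%). At 400 bp inside the gene the ratios were 0.925, 0.983 and 0.928. At bidirectional starts the ratios at these 2 distances were close, while at the other starts the upstream one was lower. Both starts of each pair are counted, and 400 bp upstream of 1 start lies beyond the partner's start at most pairs. Upstream and gene-side values of bidirectional starts thus largely describe the same DNA, and their closeness follows in part from this counting. Farther into the gene the ratio at bidirectional starts dipped to 0.880 at 700 bp, where it was 0.925 for lncRNA-paired and 0.919 for single starts. The dip did not continue. At 750 bp the ratios were 0.954 for bidirectional, 0.959 for lncRNA-paired and 0.910 for single starts, and at 1000 bp 0.943, 0.966 and 0.875.

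Summed over whole regions, control peaks covered 773 of 1066 kb of bidirectional promoters (72.5%) and MGO peaks 733 kb (68.7%), a ratio of 0.949. Between the starts themselves the ratio was 0.987. In the start windows of single genes it was 0.874, with 38.9% covered in control and 34.0% under MGO. For whole bidirectional regions the ratio was 0.730 with peaks of a −log10 q of at least 5 and 0.418 at a fold enrichment of at least 4.

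**Figure D4:**
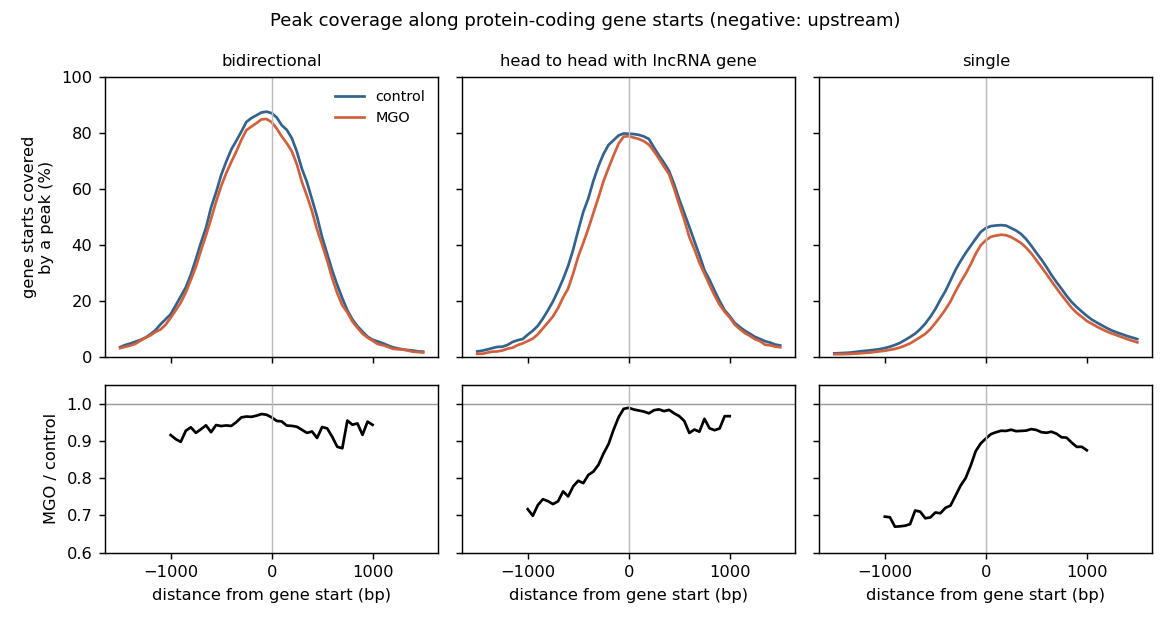
Upper panels, the percentage of gene starts covered by a control or an MGO peak at each distance from the start (x axis in bp, negative upstream) for bidirectional, lncRNA-paired and single starts. Lower panels, the ratio of MGO to control coverage within 1000 bp. At bidirectional starts the ratio is 0.940 at 400 bp upstream. Inside the gene it dips to 0.880 at 700 bp and is 0.954 at 750 bp and 0.943 at 1000 bp. The ratio is 0.809 and 0.720 at 400 bp upstream of lncRNA-paired and single starts.

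Control peaks were wider where the starts lay farther apart. The median width in control was 1113 bp for starts at most 100 bp apart, 1145.5 bp for those up to 200 bp apart, 1224.5 bp up to 500 bp and 1312 bp beyond. The median ratio, MGO over control, was 0.938, 0.959, 0.959 and 1.03, with quartiles in every group that lie on either side of 1. The group beyond 500 bp held 64 promoters with a peak in both lists.

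Individual bidirectional promoters departed far from these medians. The width ratio was largest at IFT140/CRAMP1, which joins a gene of ciliary transport with a gene of a chromatin protein, where a control peak of 398 bp over the plus-strand start stood against an MGO peak of 2116 bp at chr16:1610474-1612589. At SBF2/ADM, whose plus-strand gene encodes the peptide hormone adrenomedullin, the widths were 1092 and 3706 bp, and most of the added length lay on the ADM side. At HES4/ISG15, a Notch-related repressor and an interferon-induced ubiquitin-like protein, a control peak of 1166 bp covered the HES4 start, and an MGO peak of 2937 bp covered both. FBXO42/SZRD1 widened from 654 to 1618 bp and MAP3K12/TARBP2 from 914 to 2166 bp. Fold enrichment is given for the whole peak, and at these 5 it was 0.656 times the control value at MAP3K12/TARBP2 to 0.931 times at FBXO42/SZRD1. It was lower under MGO at 80.1% of all members with a peak in both lists. Broad peak calling can join neighbouring weak stretches into 1 peak or leave them apart, and its part in these widths was not tested.

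The ratio was smallest at DHCR7/NADSYN1, where the widths were 1764 bp in control and 520 bp under MGO (ratio 0.295). DHCR7 encodes a late enzyme of cholesterol synthesis and NADSYN1 an NAD synthetase. A histone promoter came next. A control peak of 2440 bp at chr6:27892880-27895319 over H2AC17/H2BC17, which also lies in the region of H3C12/H2BC17, stood against an MGO peak of 726 bp. TBC1D2B/SH2D7 went from 2064 to 676 bp and PFDN2/NIT1, a prefoldin subunit and a nitrilase-like enzyme, from 2366 to 829 bp. At 3 of these 5 pairs the fold enrichment under MGO was above that in control, 1.12 times at DHCR7/NADSYN1, 1.15 times at TBC1D2B/SH2D7 and 1.03 times at PFDN2/NIT1. Over all 784 promoters the MGO peak had less than 0.5 times the control width at 20 and more than 1.5 times at 43.

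**Figure D5:**
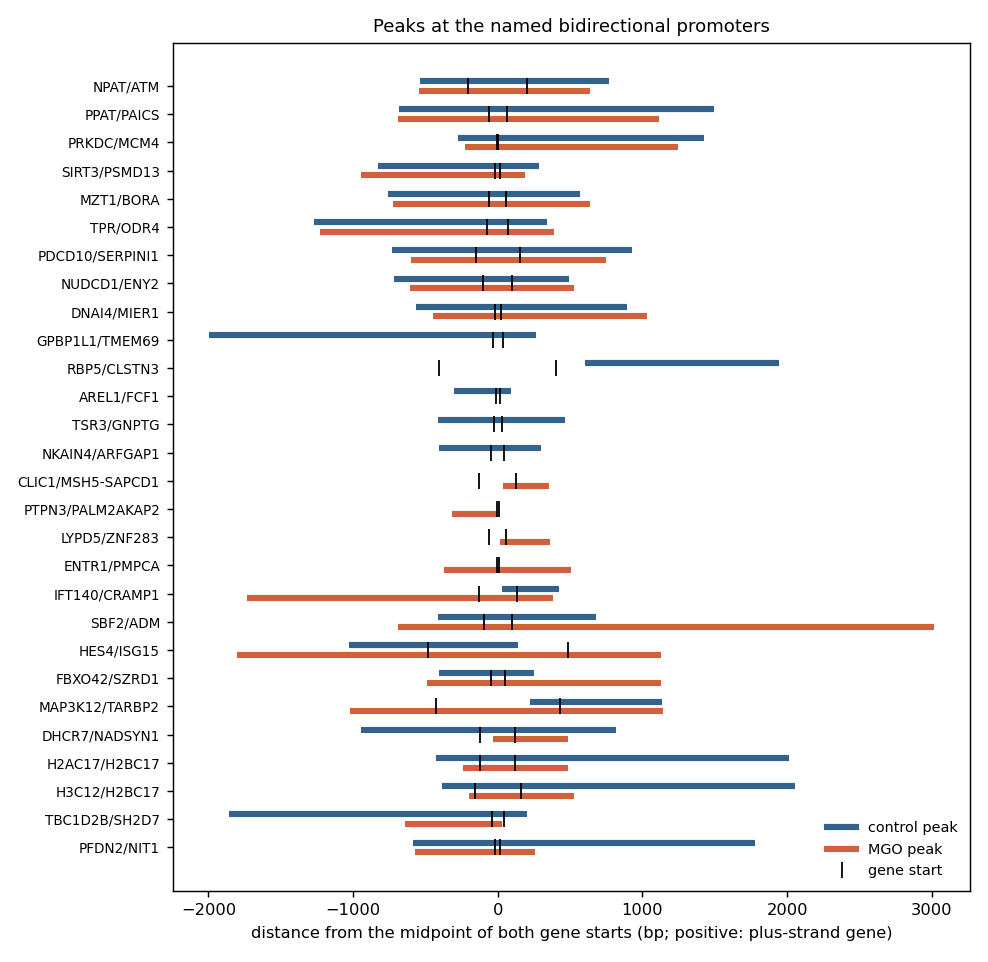
Extent of the control (blue) and MGO (orange) peaks at the named bidirectional promoters, as distance in bp from the midpoint of both gene starts (black ticks), positive toward the plus-strand gene. The upper rows have overlapping peaks in both lists, and the middle rows have a peak in 1 list. The lower rows hold the 5 largest and 5 smallest width ratios, up to the MGO peak of 3706 bp at SBF2/ADM.

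The 24 promoters with a control peak only had weak peaks, with a median −log10 p of 4.82 against 10.1 for the control peaks found in both lists. Of these 24, 7 had a −log10 q under 2. The strongest was GPBP1L1/TMEM69, with a −log10 p of 9.33 and a control peak of 2262 bp that extended over GPBP1L1. At RBP5/CLSTN3, whose starts are 809 bp apart, the control peak of 1338 bp lay wholly inside CLSTN3 (−log10 p 7.07). AREL1/FCF1, a ubiquitin ligase and a ribosome assembly factor, had 6.85, TSR3/GNPTG, an enzyme that modifies ribosomal RNA and a subunit of the enzyme that tags lysosomal proteins, 6.65, and NKAIN4/ARFGAP1 6.60. By −log10 p these 5 lay between the 65.1 percentile of the control list at NKAIN4/ARFGAP1 and the 79.6 percentile at GPBP1L1/TMEM69. Other members were MRPL10/LRRC46, POLR2L/TSPAN4, COG4/SF3B3 and MAGT1/COX7B. PARN/BFAR and ACACA/TADA2A also had a control peak only, and of their 50-base words 100% and 86.3% had another copy in the assembly.

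The 7 promoters with an MGO peak only had peaks of 314 to 878 bp, with a median width of 347 bp and a median −log10 p of 4.44, against 753 bp and 5.61 for all MGO peaks. CLIC1/MSH5-SAPCD1 had the highest −log10 p, 6.02, at the 55.1 percentile of the list, and 95.9% of its 50-base words had a copy on an alternate contig. At PTPN3/PALM2AKAP2 the value was 5.26 and the peak of 314 bp lay over the PTPN3 side. LYPD5/ZNF283 and ENTR1/PMPCA had 4.51 and 4.44. LSM7/SPPL2B and ANO8/GTPBP3 also belonged to this group, and 3 of the 7 had a −log10 q under 2.

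No peak was called in either list at 72 promoters. Copied sequence accompanied part of this group. At 36 regions at least 50% of the 50-base words occurred elsewhere in the assembly, at 31 of them on alternate contigs only, and the authors removed reads that map to several places. A peak was called in control at 44.4% of these 36 (29.5 to 60.4%) and under MGO at 41.7%, and 19 had none. At the 851 other regions the shares were 93.1% (91.2 to 94.6%) and 91.2%, and 53 had none. On chromosome 6 there were 14 such copied regions, and 11 had no peak in either list. Among these were VPS52/RPS18, which includes a gene of a protein of the small ribosomal subunit, HSPA1L/HSPA1A, with the inducible HSP70 gene, GNL1/PRR3 and EHMT2/C2, all with 100% of their words copied. For such promoters the lists do not tell closed chromatin from removed reads.

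Where little sequence was copied, promoters with no peak included those of tissue-restricted genes and others, such as ZNF106/SNAP23 and ATP5MJ/TDRD9, without copied words. Whether expression of the genes differed was not tested. Of the closest such pairs, PLCZ1/CAPZA3 (19 bp apart) serves a sperm phospholipase and a sperm actin-capping subunit and had a GC content of 44% around its plus-strand start, and CIDEB/LTB4R (20 bp) a lipid droplet protein and a leukotriene receptor, with 72.0%. CSAG1/MAGEA12 (22 bp), cancer-testis genes on chromosome X of which 18.5% of words were copied, and STX10/IER2 (28 bp), with an immediate early gene, also had none. In the whole group the DNA around the plus-strand start had a median GC content of 61.2% and CpG ratio of 0.675, against 65.0% and 0.888 for promoters with a peak in both lists.

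Groups of genes by function were counted from lists of symbols. Over all 887 members a peak was called in both lists at 88.4%, and where it was, the MGO peak was narrower at 56.4%. The counts below are small and are given as a description, with no test of a difference from these shares. They count pairs, so pairs that share a gene, such as those of RAD51C, MRPL47, MRPL32 or TIMM8B, are not separate promoters. DNA repair genes were often found in pairs, 33 of 114 (28.9%, against 8.54% of all protein-coding genes). Of their 34 promoters, 31 had a peak in both lists and 3 in neither, RHBDF1/MPG and RAD51D/FNDC8 among them. BRCA1/NBR1, the promoter of the homologous recombination gene BRCA1, had a fold enrichment of 3.15 in control and 2.65 under MGO over 1695 and 1626 bp. XPC/LSM3, with the damage sensor of nucleotide excision repair, had 4.53 and 4.03. PCNA/CDS2, with the sliding clamp of the replication fork, had 3.39 and 3.61, and DESI1/XRCC6, with the Ku70 subunit of end joining, 3.49 and 3.46. Of the 31 promoters with peaks in both lists, the MGO peak was narrower at 19.

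Several lists held mitochondrial genes. Of 78 mitochondrial ribosome genes, 17 lay in 18 pairs, with a peak in both lists at 17 and in control only at MRPL10/LRRC46 (fold enrichment 2.77). The MGO peak was narrower at 15 of these 17. Examples are MRPL46/MRPS11, with 1426 bp in control and 1254 bp under MGO, SARS2/MRPS12, with 1201 and 1065 bp, and MRPL47/NDUFB5, with 1032 and 861 bp. Of the 28 promoters of respiratory chain genes, 25 had a peak in both lists, MAGT1/COX7B had a control peak only, and ATP5MJ/TDRD9 and OSCAR/NDUFA3 had none, the latter with 91.0% of its words copied. There the MGO peak was narrower at 11 of 25. All 6 promoters of mitochondrial import genes had a peak in both lists, and at 1 of them, ARFIP2/TIMM10B, the MGO peak was narrower. At TIMM8B/SDHD, which joins an import chaperone and an anchor subunit of succinate dehydrogenase, the widths were 1068 and 1395 bp.

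Histone genes form 15 of the pairs (27 of 88 genes). A peak was called in both lists at 12, and at H2AC1/H2BC1, H2BC8/H2AC8 and H2AC14/H2BC14 in neither. The MGO peak was narrower at 10 of these 12 pairs. Among them H2AC17/H2BC17 and H3C12/H2BC17 lie under the same peaks, and other pairs share the H2BC7 start. At H2BC21/H2AC20 the widths were 3042 bp in control and 2775 bp under MGO, at H2AC25/H2BC26 2074 and 1909 bp, and at H2BC12/H2AC12 1556 and 1493 bp. Histone genes are near copies of each other, and at these 3 pairs 12.0% to 23.7% of the words were copied. The median −log10 p of the histone promoters was 7.14 in control and 6.11 under MGO, below the 9.87 and 7.97 of all members.

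Protein folding, turnover and synthesis were covered by further lists. Of 15 chaperone promoters 14 had a peak in both lists, the exception being HSPA1L/HSPA1A. At TCP1/MRPL18, with a subunit of the CCT chaperonin, the −log10 p was 20.2 and 15.8. All 7 promoters matched as proteasome genes had a peak in both lists, 1 of them by a symbol only, PSME3IP1, which encodes a protein that binds a proteasome activator. At the PSMA2/MRPL32 promoter the fold enrichment was 3.49 and 3.42. The MGO peak was narrower at 2 of these 7. Of 14 promoters matched as cytosolic ribosome genes, among them the kinase gene RPS6KB1, 13 had a peak in both lists and VPS52/RPS18 had none. The 3 promoters of tRNA synthetase genes had a peak in both lists.

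The remaining lists were gene families. Of 537 zinc finger genes 35 lay in 30 pairs (6.52%, against 8.54% of all protein-coding genes), with 26 promoters open in both lists, ZNF597/NAA60 in control only, LYPD5/ZNF283 under MGO only and ZNF106/SNAP23 and ZNF558/MBD3L1 in neither. None of 66 protocadherin genes was a member, and the only symbol matched among 152 keratin-like ones was KRTCAP2, which belongs to the oligosaccharyltransferase. Collagen IV genes gave both collagen pairs. COL4A4/COL4A3 had fold enrichments of 4.55 in control and 3.77 under MGO, and COL4A6/COL4A5 2.58 and 2.66. Both pairs had a peak over similar widths in the lists, 1448 and 1500 bp at COL4A4/COL4A3 and 2345 and 2323 bp at COL4A6/COL4A5.

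Sequence features that the rule did not use were compared between bidirectional promoters and all protein-coding promoters. They were read from 250 bp upstream to 50 bp downstream of the plus-strand start. The median GC content was 65.0%, against 60.3% for all protein-coding starts, and the median ratio of observed to expected CpG 0.879, against 0.696. ETS letters occurred in 27.2% of bidirectional windows and in 11.9% of all 20033, and NRF1 letters in 10.6% and 5.27%. The palindrome occurred in 5.84% and 2.86%, YY1 letters in 9.46% and 5.61%, and CREB letters in 4.44% and 2.29%. In contrast, TATA letters occurred in 5.14% of bidirectional and 10.8% of all windows, and AP-1 letters in 2.80% and 6.38%. SP/KLF letters, which any GC-rich DNA holds more often, were found in 71.8% and 52.4%, and NF-Y letters in 39.7% and 35.9%. Promoters paired with a lncRNA gene had a GC content of 67.0% and a CpG ratio of 0.866, with ETS letters in 19.01% and NRF1 letters in 7.46%. In SP/KLF (73.2%), palindrome (5.28%), TATA (4.58%) and AP-1 letters (3.10%) they lay close to the bidirectional promoters. A match is a description of the sequence and not a bound site.

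The letters were also counted apart for bidirectional promoters with and without a peak. The same sequence windows at the plus-strand starts were grouped by the peaks of the whole region. Of the 70 whose region had no peak in either list, 1.43% held NRF1 letters, 18.6% ETS letters, 47.1% SP/KLF letters, 14.3% TATA letters, 10% YY1 letters and 5.71% AP-1 letters. Of the 755 whose region had a peak in both lists the shares were 11.1%, 27.7%, 74.2%, 4.37%, 9.54% and 2.25%. These shares rest on 70 windows in the smaller group.

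The limit of 1000 bp lies in a continuous range of distances. The farthest members were PSMB1/TBP (995 bp), with −log10 p values of 20.3 in control and 10.00 under MGO, MS4A6A/MS4A4A (991 bp), with no peak in either list, and APBA3/MRPL54 (990 bp), with 7.37 and 4.71. The nearest pairs outside were TXNDC12/BTF3L4 (1008 bp), with 8.49 and 5.42, and a TMEM38A pair (1024 bp), with 8.002 and 5.56.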

How the data were processed

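ATAC-seq peak lists of 1 control and 1 MGO library were used. The authors aligned reads to GRCh38.p12 (BWA-MEM), discarded those of mitochondria or of several map positions (Picard Tools), equalised depth by random subsetting, and called broad peaks in each sample with MACS2 outside blacklisted regions. The submitters' processing notes name BWA 0.7.15 and Picard 2.16.0. The deposited columns are fold enrichment (a ratio), −log10 p and −log10 q, and a score, which was not used. All deposited peaks were scored, at an overlap of at least 1 bp. Read depth is not given in the lists.

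Gene starts came from GENCODE 44. Shares have 95% Wilson intervals and differences Newcombe intervals, and no test between conditions was made. Mantel-Haenszel weights used 5 groups. Copied sequence was measured as 50-base words that occur elsewhere among the 455 sequences of the hg38 assembly. The named pairs were 11 textbook pairs where they met the rule, and up to 5 pairs each by strongest control peak, by strongest peak in 1 list only, by largest and smallest width ratio, and by closest starts without a peak. Function lists matched gene symbols by name or prefix. Other pairs were named after their values were seen, and some pairs that the rule selects are not reported here. Members, lists and rules were chosen with earlier results of these data known. Alternatives were other peak thresholds, overlaps, distances, chromosomes, weights and compared classes. Python 3.11.15 was used with scipy 1.17.1, pandas 2.3.3, numpy 2.4.6 and matplotlib 3.10.9. The scoring was tested on simulated data, and overlaps were checked against bedtools 2.31.1.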

Additional observations from a re-analysis of the deposited data

How the results depend on the processing

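Of 82 alternative values of the 9 main results, 47 stayed inside the reported interval, 33 were counted as moved and 2 changed sign. The ratio of covered length has no interval, so each of its alternatives was counted as moved, however small the change. The share with a control peak was 88.4% at a −log10 q of at least 2, 64.3% at 5, 87.8% with equal numbers of peaks, 30.9% at a fold enrichment of at least 4, 83.5% where a peak had to cover 50% of the region, and 93.1% without mostly copied regions. The share with an MGO peak was 83.5%, 47.4%, 13.3%, 81.5% and 91.2% at a −log10 q of 2, of 5, a fold enrichment of 4, 50% cover and without copied regions. The share of control-peak regions that also had an MGO peak was 93.0%, 70.9%, 36.5% and 92.7% under the first 4 of these. The share with 1 control peak over both starts was 62.2% at a −log10 q of 5, 30.3% at a fold enrichment of 4 and 86.7% for starts at most 500 bp apart, and with 1 MGO peak 77.1%, 45.8% and 12.97% at a −log10 q of 2, of 5 and a fold enrichment of 4. The ratio of covered length was 0.924, 0.730, 0.972 and 0.418 at a −log10 q of 2, of 5, equal numbers and a fold enrichment of 4, and 0.942, 0.951, 0.9502 and 0.987 for starts within 500 bp, autosomes, merged regions and no flank. The median width ratio was 0.919 at a fold enrichment of 4. The difference in peak retention from other promoters was 2.81 points at a −log10 q of 5, 3.19 with equal numbers, 3.07 at equal −log10 p, −2.66 at a fold enrichment of 4 and −0.24 against lncRNA-paired promoters, and the causes of these changes were not tested.

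The difference in the share of narrower MGO peaks stayed between −11.9 and −9.57 percentage points over 9 alternatives, which were chosen after seeing the data, as were leaving out copied regions and leaving out genes of overlapping 5′ ends. Of the 35 pairs chosen by the naming rule, 34 stayed in their group at a −log10 q of at least 2. No paired analysis was possible because the lists used here came from 1 control and 1 MGO library. The peak names carry a 2 after the condition, so further libraries may exist. Read depth per peak is unknown, so a missing peak is a missing call and not an absence of open chromatin.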

Other observations

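Head-to-head pairs next to the rule were scored in the same way. Of 509 protein-coding pairs whose annotated 5′ ends overlap by up to 1000 bp, 87.6% had a control peak (84.5 to 90.2%) and 86.8% an MGO peak (83.6 to 89.5%), and 97.5% of those with a control peak also had an MGO peak (95.6 to 98.6%). Of 77 pairs with starts more than 1000 and up to 2000 bp apart, 71.4% had a control peak (60.5 to 80.3%) and 66.2% an MGO peak (55.1 to 75.8%), and 87.3% of those with a control peak also had an MGO peak (76.0 to 93.7%). Among the textbook pairs with overlapping 5′ ends, SURF1/SURF2 had peaks of 518 bp in control and 893 bp under MGO, with fold enrichments of 2.62 and 2.44.

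Motif letters and peaks can be set side by side within the 856 plus-strand windows of bidirectional promoters. A control peak was called in 97.8% of the 91 windows with NRF1 letters and in 89.7% of those without, and in 98.0% of the 50 windows with the palindrome and 90.1% of those without. With TATA letters it was 77.3% of 44 windows, against 91.3% without. Of control-peak windows, 94.4% with NRF1 letters and 96.9% without also had an MGO peak, and for ETS letters the shares were 95.4% and 97.1%. They were also lower with AP-1 letters, at 89.5% of 19 windows against 96.8%, and with the palindrome, at 95.9% against 96.7%. The other way round, the shares were 97.2% with and 94.97% without SP/KLF letters, and 97.7% and 95.9% for NF-Y letters. For YY1 letters they were 100% (72 windows) and 96.3%, for CREB letters 100% (36 windows) and 96.5%, and for TATA letters 97.1% and 96.6%. No intervals are given for these shares.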
